A study of Mus musculus with 7 samples.

Results

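Glypicans are cell surface proteoglycans, and the 6 mouse genes Gpc1, Gpc2, Gpc3, Gpc4, Gpc5 and Gpc6 make up the family. They were read here by 9 of the 55670 probes and stand for 6 of the 34792 gene names kept for analysis. The members are every probe whose gene name is a glypican, and Gpc3 itself was chosen by measured values: an earlier analysis of these arrays singled it out for its difference between postmortem and living cells. The study measured total RNA of 7 mouse samples, 250 ng each, on single-colour expression arrays. The cultures held cardiac mesenchymal progenitors (CMPs) of adult mice on a C57BL/6 background, stromal cells grown from heart tissue on collagen I in medium with 40 ng/ml of the fibroblast growth factor bFGF and 10% serum. The postmortem CMPs (1 atrial and 1 ventricular array) came from heart tissue kept for 24 h at 4 °C after death, and the living CMPs (1 atrial and 1 ventricular array) from living tissue. Adult heart was commercial total heart RNA (1 array, strain not given). Fetal heart came from C57BL/6 embryos of day 16.5, with 1 wild-type array and 1 array of the line C57BL/6-Tg(Myh6-EGFP)MG2, in which the Myh6 heart muscle promoter drives a green fluorescent protein. The labels do not say whether the arrays of a group come from separate cultures or animals, so the p-values cover the spread among these arrays alone, and that spread may be technical.

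A glypican is a globular protein held to the outer membrane leaflet by a glycosylphosphatidylinositol (GPI) anchor, with heparan sulfate chains attached near the membrane. Through these chains and its core it binds growth factors and morphogens such as fibroblast growth factors, Wnts, bone morphogenetic proteins and Hedgehog, and can raise or lower their action. Gpc3 competes with the receptor Patched for Hedgehog in mice, and its loss in humans causes Simpson-Golabi-Behmel syndrome, an overgrowth disorder that can include heart defects. Gpc3 and Gpc4 are neighbours on the X chromosome, and Gpc5 and Gpc6 are neighbours on chromosome 14.

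The results turn on the probes of Gpc3 and Gpc4, which have 2 probes each that did not read alike. Their last 30 bases, from position 31 to position 60 of the 60-base probe, are shown 5′ to 3′ as deposited, with the longest run of C or T among the bases shown in capitals. The deposited tables place all 4 probes on the minus strand of mouse build mm9.
Gpc3, NM_016697, chrX:49625740-49625799: tagtggtaggatagattgTCTTTTTgcaaa
Gpc3, AK077942, chrX:49740892-49740951: tacacaccatgctaagtaaTTTgtatatat
Gpc4, chrX:49406560-49406619: acaacaatgtacagTTTTTactgtgtggcc
Gpc4, X83577, chrX:49406100-49406159: ttgggTTTTCTTCCTTTCTTTCTTTCTCTC
The 4 differ in their content of pyrimidines. The X83577 probe of Gpc4 ends in a run of 25 bases of C and T. Only 26 probes above background on all 7 arrays (0.123%) hold a run at least as long, and they had a median range of 0.87 on the log2 scale over the arrays, against 1.48 over all probes above background on all arrays. The range of this Gpc4 probe lies at the 76.9th percentile of the 26, so it varied more than most of them.

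The probes of the other members lie at chr1:94756711-94756770 for Gpc1 (plus strand), chr5:138715328-138715387 for Gpc2 (minus strand), chr14:116923600-116923659 and chr14:115768958-115769017 for Gpc5 and chr14:118375311-118375370 for Gpc6 (plus strand). Each gene's level was read from whichever of its probes had the highest mean. Levels are log2 processed signals minus the array's 75th percentile. They compare arrays for 1 probe and do not rank the genes. Differences are on the same log2 scale.

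Gpc3 had the widest range of the 6 over the 7 arrays, 10.95 on the log2 scale. Its level was -6.18 in postmortem atrial and -5.39 in postmortem ventricular CMPs, not well above background on either array. It was -0.21 in living atrial and -0.60 in living ventricular CMPs and -0.30 in adult heart. The fetal hearts were at 4.71 (wild type) and 4.77 (Myh6-EGFP). The order thus ran from the postmortem CMPs through living CMPs and adult heart to fetal heart. The 3 middle arrays were separated by gaps of 0.30 and 0.09. Living CMPs and adult heart differed by -0.10 (living minus adult, group means), and the living arrays lay on either side of the adult one. The second Gpc3 probe, AK077942, stayed at background throughout (-6.67 to -5.48), so the Gpc3 results rest on 1 probe.

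**Figure D1:**
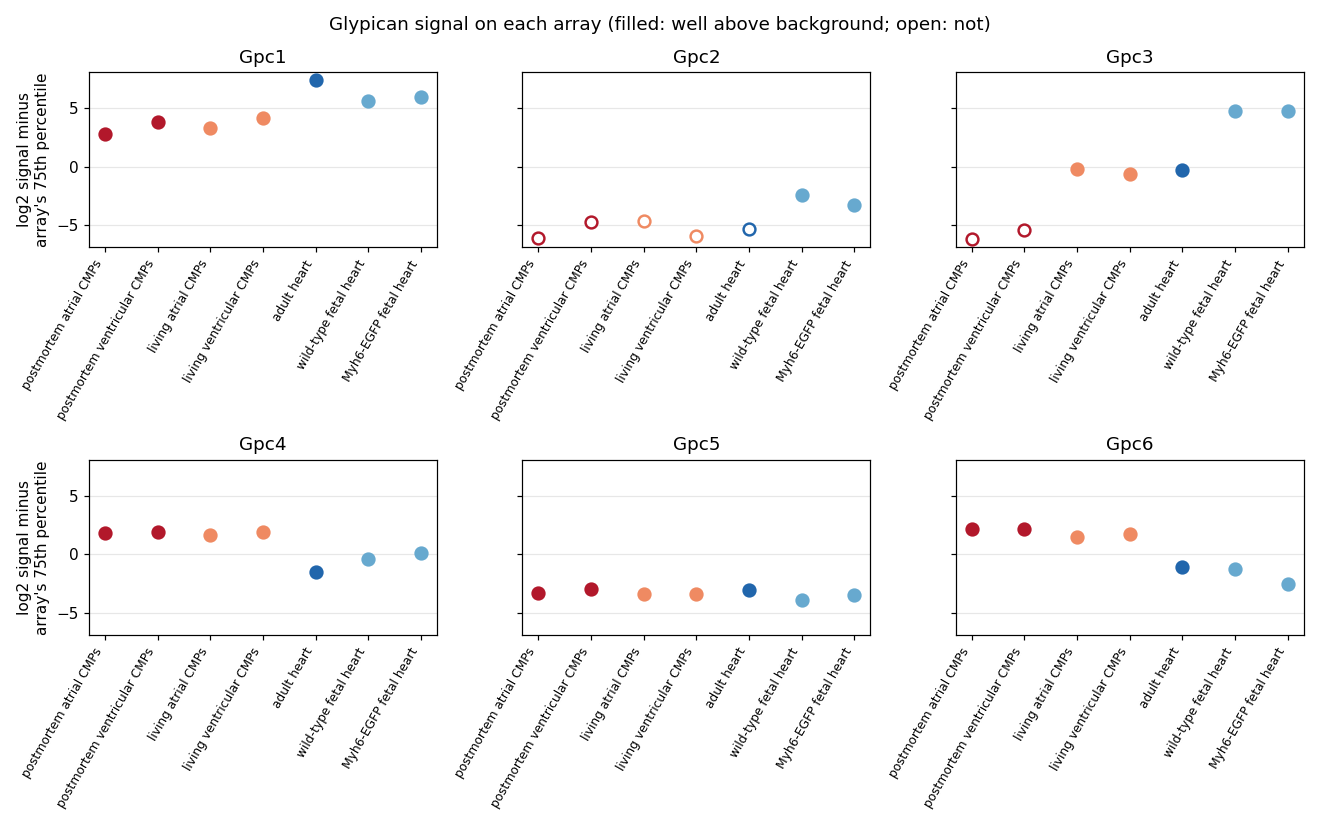
Log2 processed signal minus the array's 75th percentile (y axis) for the main probe of each glypican on each of the 7 arrays (x axis), with filled points well above background and open points not. Gpc3 spans -6.18 to 4.77 and is open on both postmortem arrays, while Gpc5 stays between -3.85 and -2.97 on every array.

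Gpc1, a widely expressed glypican that binds fibroblast growth factors, was well above background on all 7 arrays. Its levels were 2.81 and 3.85 in postmortem CMPs (atrial, then ventricular), 3.27 and 4.15 in living CMPs, 7.40 in adult heart and 5.57 and 5.95 in fetal hearts. All 4 CMP arrays lay below both kinds of heart. Gpc4, which takes part in growth factor signalling during development, was at 1.86 and 1.91 in postmortem CMPs, 1.62 and 1.93 in living CMPs, -1.53 in adult heart and -0.36 and 0.11 in fetal hearts. Gpc6, whose loss in humans causes omodysplasia, a skeletal growth disorder, was at 2.20 and 2.19 in postmortem CMPs, 1.46 and 1.70 in living CMPs, -1.11 in adult heart and -1.21 and -2.55 in fetal hearts. For both, every CMP array lay above every heart array. The fetal arrays of Gpc6 were 1.34 apart.

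Gpc2, known from the developing nervous system, was well above background only on the fetal arrays, at -2.44 (wild type) and -3.23 (Myh6-EGFP). It lay between -6.06 and -4.64 on the CMP arrays and at -5.31 in adult heart. Gpc5, which binds Hedgehog and its receptor in human tumour cells, was above background on all 7 arrays but spanned only 0.88. Its levels were -3.27 and -2.97 in postmortem CMPs, -3.38 and -3.35 in living CMPs, -3.01 in adult heart and -3.85 and -3.42 in fetal hearts. Neighbours in this order were at most 0.43 apart, the gap of the fetal pair, and its other probe stayed at background throughout (-6.63 to -5.24).

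CMPs were compared with fetal heart, 4 arrays against 2, with limma in a fit over all 7 arrays. A gene counts as called at a Benjamini-Hochberg adjusted p under 0.05 over all genes tested. Leaving out Gpc3, whose choice rests on the postmortem arrays, Gpc1 and Gpc2 were lower in CMPs and Gpc4 and Gpc6 higher. So 4 of these 5 were called, where 48% of the 20044 genes tested were (4574 higher and 5049 lower). Gpc2 entered the test only through the fetal arrays, where it was high, so its call carries no weight in that count. Gpc6 had the larger rise, 3.77 ± 0.40 (SE, 13.6-fold, adjusted p = 0.0012). Gpc4 was higher by 1.95 ± 0.22 (3.87-fold, adjusted p = 0.0015), with 4 of 4 CMP arrays above both fetal arrays.

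Gpc1 fell by 2.25 on the log2 scale (SE 0.17, adjusted p = 4.6e-04), with means of 3.52 ± 0.60 in CMPs (SD, n = 4) and 5.76 ± 0.27 in fetal hearts (SD, n = 2). Gpc2, with no CMP array well above background, was at least 2.51-fold lower in CMPs (limma adjusted p = 0.024, a test entered through the fetal arrays alone). Without the wild-type or without the Myh6-EGFP fetal array its adjusted p was 0.150 and 0.0758. Gpc5 differed by 0.39 ± 0.34 (limma adjusted p = 0.385) and was not called.

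The value of Gpc3 in this comparison holds the postmortem arrays by which it was chosen, so it is given without a test and for the living and postmortem CMPs apart. Living CMPs averaged -0.41 ± 0.27 (SD, n = 2) and fetal hearts 4.74 ± 0.04 (SD, n = 2), a difference of -5.15. Fetal heart was at least 533-fold above the postmortem CMPs, a bound set by the lowest signal well above background on each postmortem array. The second probe was at background on all arrays and bears on neither value.

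Against adult heart, a single array that is assumed to vary like the others, Gpc1 was again lower in CMPs and Gpc4 and Gpc6 higher. Of the 4 members tested other than Gpc3, 3 were called, where 49.3% of 20270 genes were. Gpc1 fell by 3.88 (SE 0.22, 14.7-fold, adjusted p = 3.4e-04). Gpc4 rose by 3.36 ± 0.28 (10.2-fold, adjusted p = 7.8e-04). Gpc6 rose by 2.99 ± 0.51 (7.96-fold, adjusted p = 0.0061).

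Gpc5 differed from adult heart by -0.24 ± 0.44 (limma adjusted p = 0.680), a sign that turned to 0.29 under quantile normalization. Gpc2 was not above background on either side and was not tested. The Gpc3 arrays of the CMPs did not lie together, and no test is read from their mean: postmortem CMPs averaged -5.79 and living CMPs -0.41, against -0.30 in adult heart. Adult heart was at least 16.2-fold above the postmortem CMPs.

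The 2 ages of heart were compared next. Adult heart was a single commercial RNA of unstated strain, so age and source cannot be told apart. Adult against fetal heart (1 array against 2), Gpc3 was 32.9-fold lower in adult heart (-5.04 ± 0.43, limma adjusted p = 0.0015). No CMP level enters the size of that difference. Its SE and adjusted p come from the fit over all arrays, whose spread also draws on the CMP arrays. Those include the postmortem arrays by which Gpc3 was chosen, so the SE and adjusted p are not independent of that choice. With the mean of the 2 Gpc3 probes, 1 of them dim throughout, the difference was -2.06. Gpc4 fell by 1.41 (SE 0.31) (limma adjusted p = 0.020) and Gpc1 higher by 1.63 ± 0.24 (limma adjusted p = 0.0062). Leaving out Gpc3, 2 of 5 were called, a share near the 37% called over 20936 genes. Gpc2 was at least 1.49-fold lower in adult heart (limma adjusted p = 0.082), and Gpc5 (0.63 ± 0.48) and Gpc6 (0.78 ± 0.56) were not called. The Gpc4 call was lost when its 2 probes were averaged (-0.57, limma adjusted p = 0.272), and the Gpc1 call was lost without the chamber term (limma adjusted p = 0.058).

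**Figure D2:**
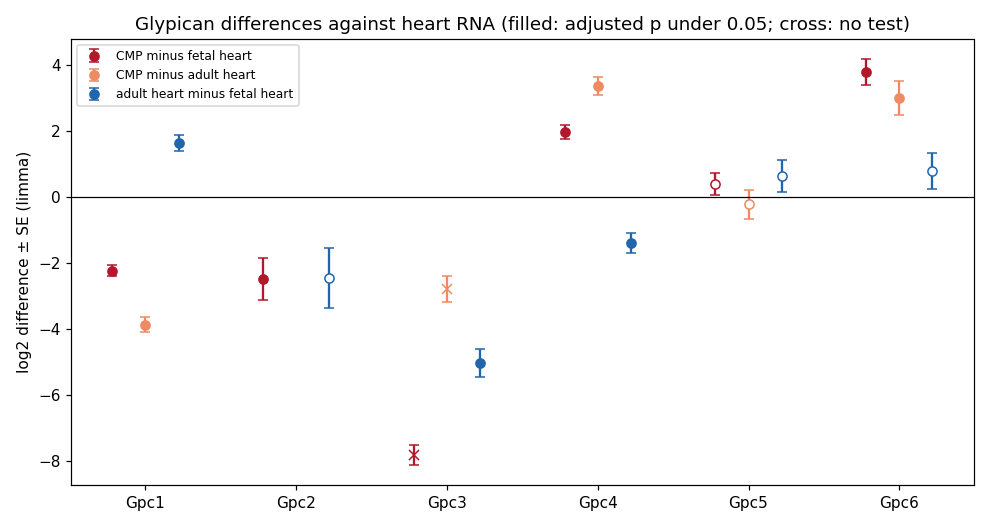
Fitted log2 difference (y axis) of each glypican (x axis) for CMP minus fetal heart, CMP minus adult heart and adult heart minus fetal heart, with bars of 1 SE from limma and filled points at an adjusted p under 0.05. Crosses mark the Gpc3 values that include the postmortem arrays, which carry no test. Gpc1 lies below 0 and Gpc4 and Gpc6 above 0 in both CMP comparisons, and the adult minus fetal value of Gpc3 is -5.04.

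The 2 probes of Gpc4 gave different pictures. The X83577 probe was above background on all 7 arrays and stayed between -3.38 and -2.18. Tested as a feature of its own, it differed by 0.59 ± 0.33 between CMPs and fetal heart (limma adjusted p = 0.198) and by 0.33 ± 0.44 between CMPs and adult heart (limma adjusted p = 0.562). It is the probe with the C and T run shown above. The part of that run in the narrower range of this probe was not tested.

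The cell makeup of the samples differed alongside these results. Of 5 cardiomyocyte markers, each CMP array showed 0 or 1 well above background and each heart array 5. Their summed level (log2 of the sum) was -2.58 to -1.81 in CMPs, 12.3 in adult heart and 10.8 to 11.6 in fetal hearts, and Actc1, Myl3, Myh6 and Tnni3 were not above background on any CMP array. Of 8 stromal markers, 8 were above background on every array, with a summed level of 10.9 to 11.1 in CMPs, 8.07 in adult heart and 9.17 to 9.32 in fetal hearts. Endothelial markers summed to 3.26 to 3.96 in CMPs, 4.57 in adult heart and 4.43 to 4.98 in fetal hearts, with 4 or 5 of 5 above background on each CMP array. Leukocyte markers summed to 2.01 to 2.87 in CMPs, 5.77 in adult heart and 4.30 to 4.34 in fetal hearts, with 3 or 4 of 5 above background on each CMP array. Epicardial and mesothelial markers summed to 0.49 to 1.61 in CMPs, 3.71 in adult heart and 5.14 and 5.52 in fetal hearts. Proliferation markers summed to 4.62 to 5.87 in CMPs, 1.54 in adult heart and 7.32 to 7.44 in fetal hearts. Red cell markers summed to -4.27 to -3.34 in CMPs, 10.3 in adult heart and 10.5 to 11.1 in fetal hearts. In bulk RNA, fewer cells of a type and less RNA per cell cannot be told apart, and the part of cell makeup in the glypican differences was not tested.

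Between postmortem and living CMPs, Gpc3 was the member that set the comparison. Its signals differed by -5.96 in atrial and -4.79 in ventricular CMPs (postmortem minus living), but both postmortem signals were at background, so what they give is a bound, at least 15.0-fold lower in the postmortem CMPs. These values chose Gpc3 and carry no test. In this comparison 20 of 19007 genes (0.105%) were called, a share from which nothing is read for Gpc3.

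The other glypicans did not show such a difference. Gpc1 differed by -0.38 ± 0.19 (limma adjusted p = 0.551), Gpc4 by 0.11 ± 0.25 (limma adjusted p = 0.926) and Gpc5 by 0.24 ± 0.37 (limma adjusted p = 0.869). Gpc6 differed by 0.61 ± 0.46 (limma adjusted p = 0.681). Gpc5 and Gpc6 each lay higher on both postmortem arrays than on both living arrays. With 2 arrays a side, no weight is put on such an order. None of the 4 was called, and Gpc2 was above background on neither side.

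Sums of some cell markers also differed between postmortem and living CMPs. The 4 proliferation markers summed to 5.63 and 5.87 in postmortem CMPs, against 4.62 and 5.05 in living CMPs, and were above background on all 4 arrays. The leukocyte markers summed to 2.57 and 2.01 in postmortem CMPs, against 2.87 and 2.69 in living CMPs. The endothelial markers summed to 3.26 and 3.31 in postmortem CMPs, against 3.96 and 3.65 in living CMPs. Kdr, the highest of them, made up most of that sum. Single leukocyte and endothelial markers did not all split this way. Cdh5 was at -1.25 and 1.17 in postmortem CMPs (atrial, then ventricular), against 1.87 and 0.25 in living CMPs. Cd68 was at -1.55 and -1.18, against -1.28 and -0.45. The part of these cell types in the Gpc3 difference was not tested. All 7 arrays were on 1 slide and in 1 scan, so neither separates the groups, but CMPs and hearts lay in different rows of the slide, and row and sample type cannot be told apart.

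Gpc3 and Gpc4 are X-linked, and sex-linked genes, looked up after the values were seen, were not alike in the samples. Xist, the noncoding RNA of the inactive X, was above background on all 4 CMP arrays, at -1.51 and -1.51 in postmortem and -1.23 and -1.33 in living CMPs, and on the wild-type fetal array at -2.61, but not in adult heart or the Myh6-EGFP fetal heart. Ddx3y, a Y-linked helicase, was above background on no CMP array and on all 3 heart arrays, at 1.99 in adult and 1.19 and 0.35 in fetal hearts. Eif2s3y, another Y-linked gene, was above background on those 3 and on the postmortem ventricular CMP array (-2.30). Both sets of living and postmortem CMPs thus carried Xist signal, and the part of sex in the CMP against heart differences of Gpc3 and Gpc4 was not tested.

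The chambers were compared over 2 ventricular and 2 atrial CMP arrays. Gpc1 was the member that stood furthest apart, at 3.85 and 4.15 in ventricular CMPs and 2.81 and 3.27 in atrial CMPs (postmortem, then living). The difference of 0.96 ± 0.19 was not called (limma adjusted p = 0.278). Both ventricular arrays lay above both atrial arrays for Gpc1 and also for Gpc4. Gpc4 differed by 0.18 ± 0.25, Gpc5 by 0.17 ± 0.37 and Gpc6 by 0.11 ± 0.46, and none was called. Limma called 0 of 18906 genes (0%) here, with 1561 at an unadjusted p under 0.05. With normexp background correction limma called 5 genes, no glypican among them. A test of whether the postmortem difference depended on chamber called 458 of 19007 genes (2.41%), and no glypican (limma adjusted p = 1.00 for each of the 5 tested, on 1 residual degree of freedom).

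Genes beside Gpc3 and Gpc4 did not share the low postmortem level of Gpc3. Of 22 other genes with a probe within 1 Mb of a Gpc3 or Gpc4 probe, 16 were above background on some array. Of these, 14 could be tested between postmortem and living CMPs. Limma called none of them (2 had an unadjusted p under 0.05), where 0.105% of all 19007 genes were called. Their differences ran from -0.78 to 0.95. Gpc3, chosen for this contrast, was at least 15.0-fold lower. Gpc4, whose probe lies 0.22 Mb from that of Gpc3, differed by 0.11.

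**Figure D3:**
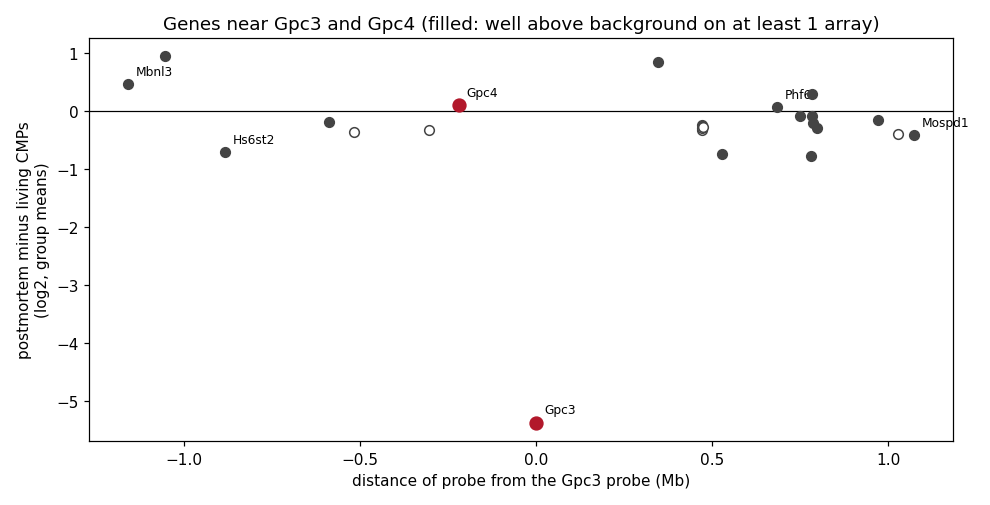
Difference between postmortem and living CMPs (y axis, log2, group means) of Gpc3, Gpc4 (red) and the 22 other genes with probes within 1 Mb of them (grey), against the distance of each probe from the Gpc3 probe (x axis, Mb). Filled points were well above background on at least 1 array, and the other genes lie between -0.78 and 0.95. The Gpc3 point uses postmortem signals at background and is the contrast that chose Gpc3, so only a bound of at least 15.0-fold lower can be read from it.

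Between CMPs and fetal heart, where 48% of all genes were called, 2 of the 16 X-linked neighbours tested were higher and 9 lower. Plac1, a placental gene, was above background only on the fetal arrays and at least 19.2-fold lower in CMPs (limma adjusted p = 2.4e-04, a test entered through the fetal arrays alone). Hs6st2, an enzyme that adds 6-O-sulfate to heparan sulfate, was higher by 2.61 ± 0.23 (limma adjusted p = 7.1e-04). Mbnl3, a regulator of RNA splicing, fell by 2.36 (limma adjusted p = 9.5e-04). At the Gpc5 and Gpc6 locus 15 of 26 other genes were tested. Of these, 3 were higher and 3 lower, with Mir17hg and an intergenic probe at its position both lower. That is no larger a share than the 48% of all genes. Plac1, Mir17hg and that intergenic probe had no CMP array above background and entered the test through the fetal arrays alone. Their calls carry no weight in these counts. The nearest probe there, unnamed (A_55_P1965594), lies 487 bases from the Gpc6 probe between centres and on the opposite strand. It was at -0.19 and -0.48 in postmortem CMPs, -0.82 and -0.62 in living CMPs, -3.94 in adult heart and -3.25 and -4.85 in fetal hearts. It was called higher in CMPs than in fetal heart (limma adjusted p = 0.0032), but of the 3 heart arrays only the wild-type fetal one read it above background, so the size of the difference is not measured.

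The 250 bases before the gene start were looked up in the RefSeq promoter table (GRCm38.p6), which holds Gpc2, Gpc3, Gpc4 and Gpc5. Those of Gpc3 and Gpc4 are shown because the neighbours differ in pattern, 5′ to 3′ on the gene's strand, with GGGCGG on either strand (the GC box, bound by Sp factors) in capitals.
Gpc3, chrX:52613975-52614224, minus strand: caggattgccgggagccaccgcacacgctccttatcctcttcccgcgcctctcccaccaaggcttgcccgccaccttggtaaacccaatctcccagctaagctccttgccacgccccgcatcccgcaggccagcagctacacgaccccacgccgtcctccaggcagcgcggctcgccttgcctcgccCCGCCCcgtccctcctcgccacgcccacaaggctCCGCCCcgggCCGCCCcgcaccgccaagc
Gpc4, chrX:52164924-52165173, minus strand: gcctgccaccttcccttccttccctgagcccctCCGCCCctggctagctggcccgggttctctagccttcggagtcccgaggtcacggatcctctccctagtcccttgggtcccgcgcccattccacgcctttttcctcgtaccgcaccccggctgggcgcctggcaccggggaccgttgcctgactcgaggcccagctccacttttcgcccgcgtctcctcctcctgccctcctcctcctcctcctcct
Gpc3 has 3 GC boxes, 25 CpG and 71.6% G and C. Gpc4 has 1 GC box, 18 CpG and 68.4% G and C. A box is found in 32.7% of 32851 promoters, whose medians are 6 CpG and 52.4%. Gpc2 has 3 boxes and 19 CpG, and Gpc5 has 1 box and 12 CpG. A match describes these letters and not a bound site.

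The genes with the profile most like each glypican were those with the smallest root mean square difference over the 7 arrays after centring. For Gpc3 these were H19 (1.43), Tceal5 (1.44), Megf6 (1.45), Snap91 (1.62) and Rnf208 (1.65), where the median over 20309 genes was 4.03. H19, an imprinted noncoding RNA of the fetus, was at -0.89 and 1.90 in postmortem CMPs, 2.53 and 2.59 in living CMPs, 3.41 in adult heart and 9.32 and 9.95 in fetal hearts. Since likeness to Gpc3 picked these genes, their own postmortem levels are a description. Tceal5 was at -5.56 and -6.25 in postmortem CMPs, below the lowest signal that counted as well above background on those arrays. It was at -3.40 and -3.63 in living CMPs, against 0.28 in adult and 4.01 and 4.32 in fetal hearts.

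**Figure D4:**
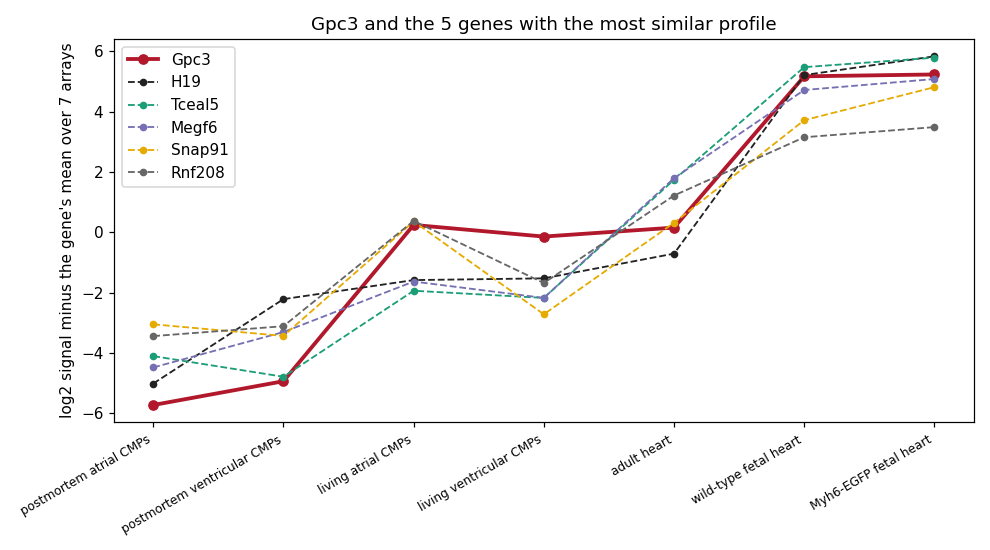
Log2 signal minus each gene's own mean over the 7 arrays (y axis) for Gpc3 (thick red line) and the 5 genes with the most similar profile (dashed lines), over the arrays (x axis). All 6 are highest in the fetal hearts, and H19, the closest, has a root mean square difference of 1.43 from Gpc3.

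The other glypicans differed less from their nearest genes. They also ranged less over the arrays than Gpc3, and their medians over all candidates were lower, so these values do not rank likeness between glypicans. Gpc4 was nearest to Slc35a5 (0.19), Atp8b2 (0.20) and Fstl1 (0.21), a secreted glycoprotein of stromal cells, against a median of 1.36 over all candidates. Gpc1 was nearest to Homer1 (0.25), Cycs (0.26), the cytochrome c of the respiratory chain, and the unnamed probe A_55_P1971769 (0.27), against a median of 1.64. Gpc6 was nearest to the unnamed probe beside it (0.25), Pdlim2 (0.25) and Trim46 (0.27), against a median of 1.85. Gpc2 was nearest to Plxnc1 (0.32), Arhgap8 (0.34) and Zcwpw1 (0.41), against 1.42. Gpc5, which varied little, was nearest to 2 intergenic transcripts and Galnt1 (0.10), against 0.64.

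The machinery that builds heparan sulfate on glypicans was higher in CMPs than in fetal heart for more genes than it was lower. Of 25 tested of 31 listed synthesis genes, 13 were higher and 5 lower, with a median difference of 0.55. Over all 20044 genes the median was -0.01, with 4574 called higher and 5049 lower (48% in all). Here and in the lists below, each gene given as an at-least fold entered the test only through the side where it was high. Such calls carry no weight in the counts. Ext1 and Ext2, which together polymerise the chain, were higher by 1.30 ± 0.14 and 1.48 ± 0.29, and Ndst1, which starts its sulfation, by 0.83 ± 0.15. Ndst3, a related enzyme, was at least 7.02-fold higher. Ugdh, which makes the glucuronic acid donor, was higher by 1.81 ± 0.18. Extl1 and Hs3st4 were at least 4.59-fold and 8.40-fold lower, with no CMP array above background, and Hs2st1, which adds 2-O-sulfate, fell by 1.91 (SE 0.20.)

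Against adult heart 15 of 24 tested synthesis genes were higher and 4 lower (median 1.07), where 49.3% of all genes were called. Hs6st2 was at least 137-fold higher in CMPs, with levels of 2.70 and 3.97 in postmortem and 3.82 and 4.26 in living CMPs. It was at -3.52 and not above background in adult heart, and at 1.23 and 0.93 in fetal hearts. Adult against fetal heart 2 of 25 were higher and 6 lower, no larger a share than the 37% called over all genes. Hs6st2 was at least 22.4-fold lower in adult heart.

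Of the 15 genes that edit heparan sulfate or release glypicans, 13 were tested against fetal heart, with 5 higher and 1 lower (median 0.56), a share called near the 48% over all genes. Sulf1, an extracellular enzyme that removes 6-O-sulfate, was higher by 2.19 ± 0.19, while Sulf2 differed by 0.19 ± 0.15 and was not called. Hpse, the heparanase that cuts the chain, was higher by 3.56 ± 0.55, and Pcsk6, a proprotein convertase, by 2.49 ± 0.30. Furin, a convertase that cleaves Gpc3, differed by 0.56 ± 0.25 and Pcsk5 by -0.57 ± 0.49, and neither was called. Notum, an extracellular lipase that inactivates Wnts, was higher by 0.67 ± 0.15, and Gdpd5, a membrane enzyme that cuts GPI anchors, fell by 1.65 (SE 0.23.) Against adult heart 7 of 12 were higher and 2 lower, where 49.3% of all genes were called.

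Gdpd2, of the same enzyme family as Gdpd5, was at -0.38 and -4.23 in postmortem CMPs and at 1.43 and -0.81 in living CMPs. Its difference of -2.61 ± 0.44 was not called (limma adjusted p = 0.198), with the atrial postmortem array above the ventricular living one.

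The other heparan sulfate proteoglycans were all 8 tested, and 5 were higher in CMPs than in fetal heart and 2 lower (median 1.02), where 48% of all genes were called. The syndecans, transmembrane carriers of the same chains, were all higher: Sdc4 by 3.59 ± 0.19, Sdc3 by 3.13 ± 0.14, Sdc2 by 1.95 ± 0.16 and Sdc1 by 1.00 ± 0.21. Hspg2, the basement membrane proteoglycan perlecan, was higher by 1.03 ± 0.32. Col18a1 and Agrn, also basement membrane proteoglycans, fell by 1.82 (SE 0.33) and fell by 0.92 (SE 0.23). Against adult heart 5 were higher and none lower, where 49.3% of all genes were called.

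Among 23 binding partners and growth regulators, 21 were tested against fetal heart, with 8 higher and 7 lower (median 0.33), where 48% of all genes were called. Igf2, the fetal growth factor whose gene neighbours H19, was at -6.10 and -6.25 in postmortem CMPs and -5.99 and -5.41 in living CMPs, against 3.46 and 3.68 in fetal hearts. No CMP array was above background, so Igf2 was at least 214-fold lower in CMPs (limma adjusted p = 8.6e-05, a test entered through the fetal arrays alone). H19 fell by 8.10 on the log2 scale in CMPs (SE 0.55), and its adult minus fetal difference was -6.23 ± 0.77. Lrp1, the endocytic receptor that takes up Gpc3 with Hedgehog, was higher by 4.07 ± 0.25 in CMPs and Fgf2 was at least 16.7-fold higher. Dpp4, a peptidase that Gpc3 binds and inhibits, was at least 31.9-fold lower. Igf1r was higher by 0.95 ± 0.15, Wnt5a differed by -0.04 ± 0.23, and Cd81, a tetraspanin that binds Gpc3, was higher by 0.84 ± 0.24. Against adult heart 12 of 21 were higher and 2 lower, where 49.3% of all genes were called.

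The Hedgehog pathway had 13 of its 18 genes tested against fetal heart, with 3 higher and 4 lower (median 0.57), a share called near the 48% over all genes. Disp1, needed to release Hedgehog, was higher by 2.27 ± 0.19 and Gas1, a coreceptor, by 1.63 ± 0.29. Scube2, which helps release Hedgehog, fell by 4.92 (SE 0.34), Ptch1, the receptor, fell by 1.34 (SE 0.43), and Gli2, a transcription factor, was at least 5.85-fold lower. The fetal arrays differed from each other here: Gli1 was at 2.96 (wild type) and -3.90 (Myh6-EGFP), and Hhip, an inhibitor that binds Hedgehog, was at 1.76 (wild type) and -4.88 (Myh6-EGFP). Gpc3 differed by 0.06 between the same arrays. Against adult heart 8 of 13 were higher and 1 lower, where 49.3% of all genes were called.

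Within the CMPs no gene of these lists was called, where few or no genes were called at all. Of 75 genes tested over the 5 lists, limma called 0 between postmortem and living CMPs, with 14 at an unadjusted p under 0.05. Over all 19007 genes it called 20 (0.105%), with 2100 at an unadjusted p under 0.05. It called 0 of 75 between ventricular and atrial CMPs, with 15 at an unadjusted p under 0.05. Over all 18906 genes it called 0 there, with 1561 at an unadjusted p under 0.05.

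**Figure D5:**
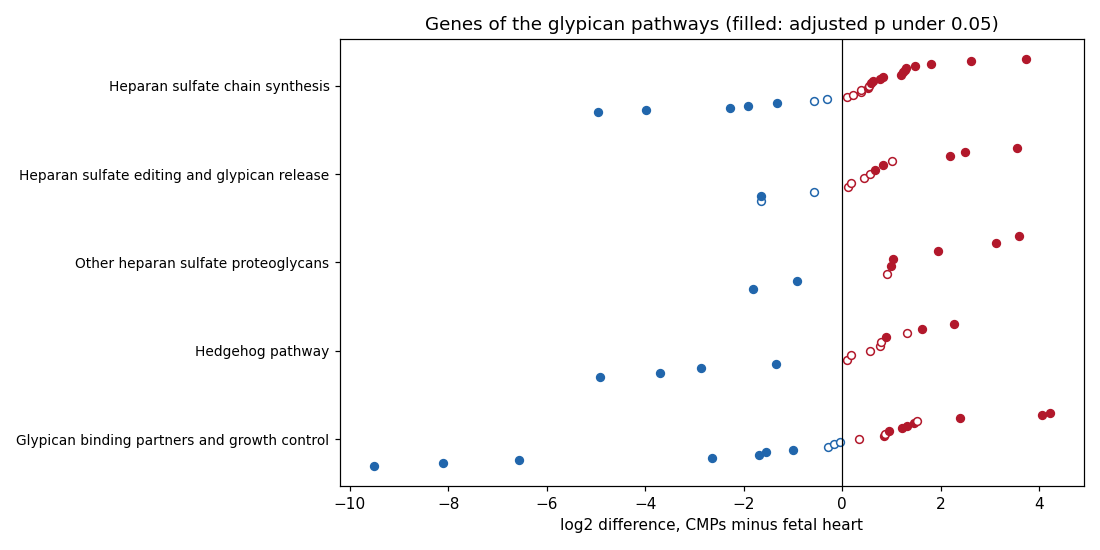
Log2 difference between CMPs and fetal heart (x axis) for every tested gene of 5 lists (y axis), red above 0 and blue below 0, filled at a limma adjusted p under 0.05. The lowest points, Igf2 and H19, are among the binding partners and growth regulators, and points of genes such as Igf2, with no CMP array above background, are not exact (at least 214-fold lower).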

How the data were processed

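RNA was labelled with Cy3 on Agilent 8x60K arrays. The authors deposited 1 scanner table per array with linear intensity columns, background-subtracted and detrended per the file headers (Feature Extraction 10.7.3.1 per the file headers, 9.5.3 per the submitters' processing notes), and a series table of log2 values whose further steps are not given in the sources used here. Set against the scanner values, each series column differed from log2 processed signal by 1 constant for 100% of probes (tolerance 0.001), and its column medians were -4.25, -4.17, -4.21 and -4.13 (CMPs), -3.60 (adult) and -4.03 and -3.87 (fetal), so scale and direction are known. Each array held 59305 non-control spots. Spots of a probe were averaged, 11 probes with an outlier flag were left out, 0 spots were saturated and 46.5% to 52.5% of probes were well above background. The number of arrays limits the precision.

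Values are log2 processed signals from which the array's 75th percentile was subtracted. Differences were tested two-sided with limma 3.58.1 in R 4.3.3 (lmFit, eBayes with a trend) with terms for the 4 groups and CMP chamber (2 residual degrees of freedom), on genes above background throughout 1 side or both, and the fit was tested on simulated data. For at-least folds, a dim array entered at its lowest signal that counted as well above background, or at the probe's own signal where that was higher. Named are all members, the 5 genes most like Gpc3 and 3 for each other member among genes above background on at least 3 arrays, locus neighbours within 1 Mb, and from 5 pathway lists up to 5 called genes a direction plus members with a known glypican role. Members and lists were chosen with earlier results of these data known. Alternatives were other background corrections, normalizations, filters, probe summaries, models and leaving out each array.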

Additional observations from a re-analysis of the deposited data

How the results depend on the processing

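Under the alternatives run, differences against fetal heart stayed at -2.44 to -2.06 for Gpc1, 1.27 to 2.19 for Gpc4 and 3.01 to 4.44 for Gpc6. Against adult heart they stayed at -3.92 to -3.73 for Gpc1, 1.84 to 3.50 for Gpc4 and 2.49 to 3.09 for Gpc6. The count of called glypicans was 2 to 4 for adult against fetal heart, with Gpc3 counted, where 37% of all genes were called in the main fit. With Gpc3 left out of the postmortem count, it stayed at 0 for the remaining comparisons. Signs turned only in differences that were not called: Gpc5 against adult heart was 0.287 with quantile normalization, Gpc5 between chambers -0.24 with the mean of probes, and Gpc5 between postmortem and living CMPs -0.038 with normexp. Leaving out single arrays gave -0.013 to 0.238 for Gpc6 between chambers and -0.023 to 0.237 for Gpc4 between postmortem and living CMPs. The Gpc3 difference between postmortem and living CMPs was -2.32 with normexp, -2.84 with the mean of its probes and -4.79 to -5.96 without single arrays. With normexp Gpc2 was -0.65 against fetal heart and Gpc3 -1.27 against adult heart. For adult against fetal heart, Gpc2 was called with only the groups compared or without any 1 CMP array (limma adjusted p 0.0039 to 0.0098) and Gpc6 without the wild-type fetal array (1.44, limma adjusted p = 0.036). Calls over all genes were less stable. Between postmortem and living CMPs they numbered 47 with normexp, 53 without a filter, 2 without the chamber term, 0 with no trend, with only the groups compared or without either fetal array, and 416 to 1764 without a CMP array. Between chambers they numbered 5, 25 and 418 to 1798 with normexp, with no filter and without a CMP array, and 2 with each probe on its own. The interaction made 0 calls with quantile normalization and 112 with no trend. The cause was not tested. Not run were the adult comparisons without the single adult array, the chamber comparison without its own term, and the interaction with only the groups compared or without a CMP or fetal array. The labels carry no replicate numbers, but postmortem and living CMPs are paired by chamber, and the chamber term of the fit is that pairing. Without it 2 genes were called in place of 20.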
